A study of Mus musculus with 2 samples.

Results

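The large probe regions of a mouse methylation array were examined: autosomal stretches in which 10 or more array probes started at most 500 bp apart. There were 962 such regions among 18959 autosomal regions of 2 or more probes (5.07%), and they held 12656 of 88633 autosomal probes (14.3%). They were chosen by probe position alone, in mm8 coordinates, with no use of signal. The set was proposed as large CpG islands; whether each region is a CpG island was not checked, since sequence and gene annotation of mm8 were not used here, and the regions are named by position and probe number.

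The DNA came from hypothalami of female FVB/NJ mice at postnatal day 180. SL mice were raised in small litters of 4 pups, a model of early postnatal overnutrition, and control (C) mice in litters of 9 pups. Pools were made of 5 hypothalami each, and each group had 2 pools (10 hypothalami). SL was hybridised against C on 2 arrays: SL carried Cy5 and C Cy3 on array 1, and the dyes were exchanged on array 2. The labels do not tie pools to arrays, so the spread between the arrays may be technical. A hypothalamus holds many cell types, and a change in their shares cannot be told apart from a change in methylation within cells. The tissue label could not be checked on DNA.

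CpG islands are stretches rich in CpG dinucleotides, many of them at gene promoters, and in normal tissue most are unmethylated. In the assay used, SmaI first cuts unmethylated CCCGGG sites to blunt ends, and XmaI then opens the remaining methylated sites with overhangs that take an adaptor. A fragment is amplified when both of its ends were methylated sites. Signal therefore measures the relative amount of such a fragment, not a methylation percentage, and log2(SL/C) above 0 means more of it in SL.

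The large regions held a median of 12 probes and at most 55. Regions of exactly 12 probes made up 35% (337), 142 had 10, 161 had 11, 75 had 16, and 63 had 20 or more. Their median span was 1952 bp (713 to 8726 bp), against 533 bp for regions of 2 to 9 probes. Neighbouring probe starts lay a median of 133 bp apart (quartiles 84 and 226 bp), and 6.28% of 11694 neighbouring pairs overlapped. Large regions were found on all 19 autosomes, where they made up between 3.9% and 7.16% of the regions. Probes of 45 bases made up 57.4% of probes in large regions and 34% in regions of 2 to 9 probes; probes of 60 bases made up 11% and 26.4%.

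Most probes were measured in every channel. Probes above background on each array, in 1 channel or both, were kept: 12350 of 12656 were kept (97.58%, against 95.55% in regions of 2 to 9 probes). All 962 regions could be tested, 784 of them with every probe, and the fewest kept in any was 6. Over all genomic spots the median intensities were 1658 (Cy5) and 1798 (Cy3) on array 1, then 1089 and 1073 on array 2, and no spot was saturated.

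Large regions gave less fragment signal than smaller ones in all 4 channels. Region signal is the geometric mean of the kept probes' processed intensities. On array 1 its median was 690.4 in SL and 667 in C for large regions, against 2058 and 2265 for regions of 2 to 9 probes. On array 2 it was 404.3 in SL and 402 in C, against 1344 and 1393. Smaller regions were thus 2.98 to 3.47 times brighter, a gap seen on both arrays and in both groups. With 2 arrays the exact two-sided sign-flip test cannot give a p below 0.5, which is the value it gave. Probes differ in affinity and length, which no value here corrects, so this is a description.

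**Figure D1:**
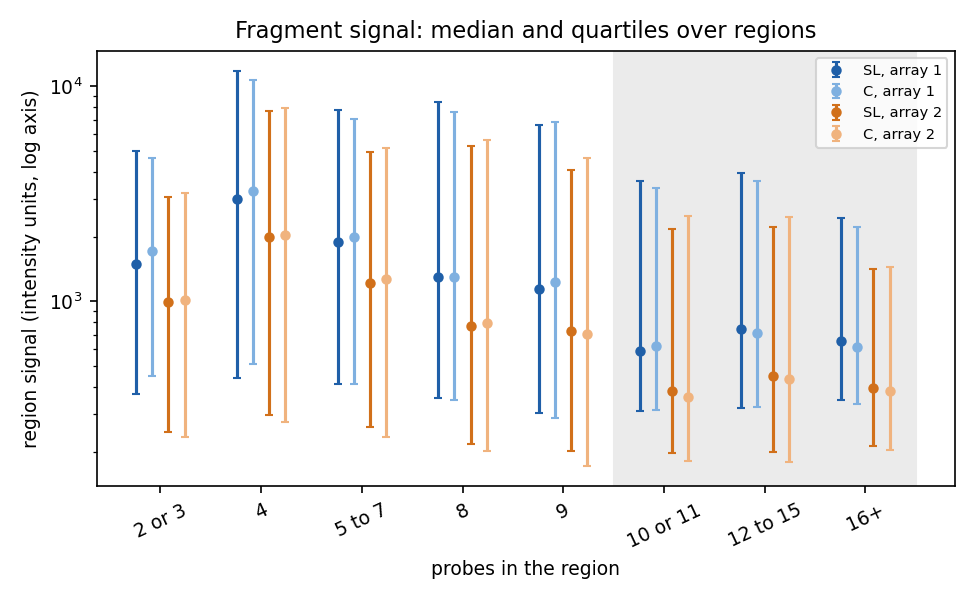
Region signal by number of probes, as median and quartiles over regions (intensity units, log axis), for SL and C on each array; the shaded classes have 10 or more probes. Regions of 4 probes were the brightest class, at a median of 2999 in SL on array 1, and regions of 16 or more probes sat at 657.

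Signal did not fall evenly with probe number. In SL on array 1 the median was 1487 in regions of 2 or 3 probes, 2999 in regions of 4, 1883 in those of 5 to 7, 1296 in regions of 8 and 1142 in the 111 regions of 9. It was 641 in the 142 regions of 10, 747 in those of 12 to 15 and 657 in those of 16 or more. The spread within each class was far wider than these steps: the quartiles of the large regions were 318 and 3611. Ranked among all autosomal regions by mean signal, 25.6% of large regions were in the dimmest quintile and 34.6% in the next, against 12.5% in the brightest. The longest region just inside the threshold, chr6:30565615-30568492 (10 probes, 2878 bp), had signals of 735 (SL) and 750 (C) on array 1, then 462 and 461 on array 2. The longest just outside, chr8:122484549-122487838 (9 probes, 3290 bp), had 13480 and 7823 on array 1, then 5541 and 6424 on array 2.

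The brightest and dimmest large regions were far apart. The 2 brightest lie next to each other on chromosome 3, each with 16 probes. The first, chr3:93368485-93371415, read 111500 (SL) and 38490 (C) on array 1, and 26250 (SL) and 56710 (C) on array 2. The second, chr3:93375397-93378237, read 81310 and 32120, then 25280 and 47160. In both the Cy5 channel was the higher on each array, whichever group it held. The region chr17:39453405-39455108 (12 probes) followed the same order, with 47340 (SL) and 24360 (C) on array 1, then 17410 and 27420 on array 2. The region chr11:58821112-58822984 (19 probes) differed less between channels, with 35070 and 27810, then 23090 and 23500. At the other end, chr7:37479462-37483319 kept only 7 of 16 probes and read 97.8, 99.8, 50.2 and 46.8 in the same order of channels. The other 3 dimmest were chr4:87503476-87505638, chr1:97495839-97497835 and chr12:15840607-15842792, each with 11 or 12 probes, of which 10 or 11 were kept. Their signals lay between 51.1 and 125 in all channels.

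The median of the large regions lay slightly above 0 on both arrays. Their median log2(SL/C) was 0.05 on array 1 (quartiles -0.10 and 0.23) and 0.06 on array 2 (quartiles -0.06 and 0.20). Regions of 2 to 9 probes had medians of -0.05 and -0.01. The difference, 0.09 on array 1 and 0.07 on array 2 (mean 0.08 ± 0.02 SD, n = 2 arrays; exact sign-flip p = 0.5, the smallest possible), cannot pass a test with 2 arrays. It was 0.04 and 0.02 once the median of each probe length was subtracted. It was 0.15 and 0.01 when large and small regions were compared within quintiles of signal, a comparison chosen after the values were seen. With those length medians subtracted, the large regions' own median was -0.00365 on array 1 and 0.02 on array 2.

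The ratio moved with signal, in opposite ways on the 2 arrays. From the dimmest to the brightest quintile, the large regions' median log2(SL/C) was -0.05, 0.04, 0.10, 0.23 and 0.52 on array 1. On array 2 it was 0.22, 0.11, -0.00, -0.08 and -0.13. Bright regions were therefore higher in the Cy5 channel on both arrays. Regions of 2 to 9 probes ran the same way, with array 1 medians of -0.17 in the dimmest quintile and 0.28 in the brightest, and 0.23 and -0.12 on the other array.

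**Figure D2:**
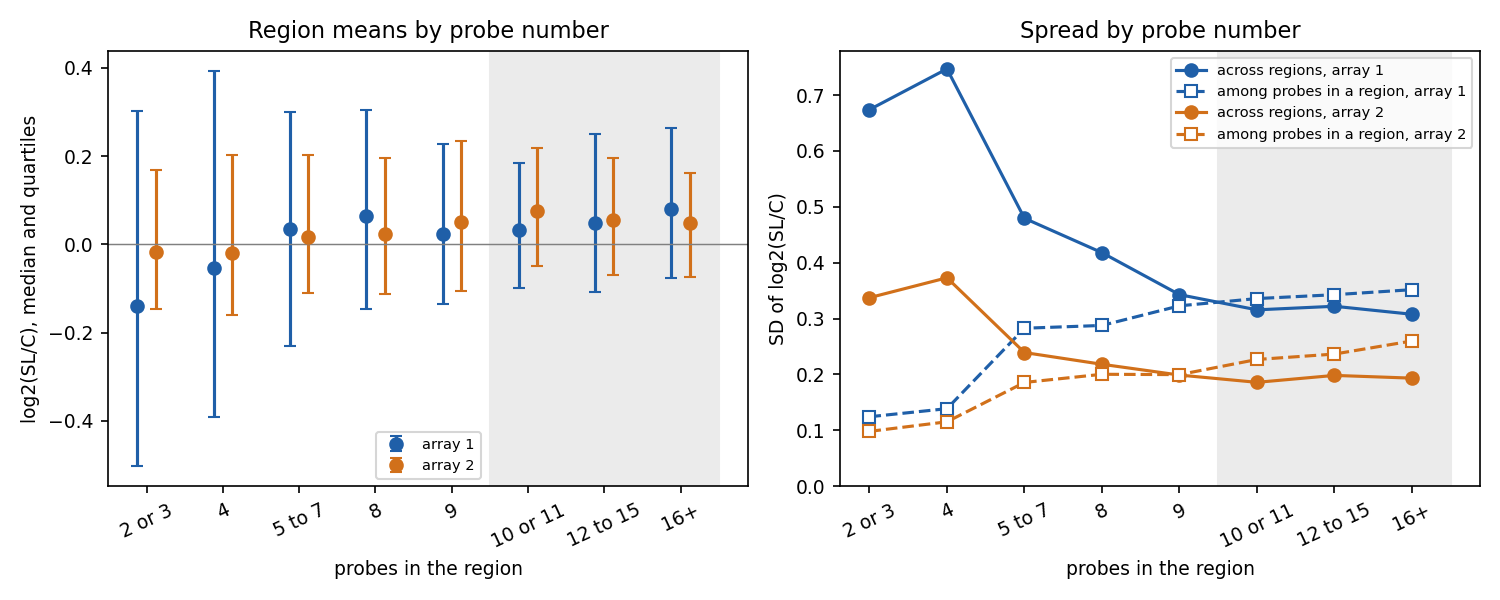
Left, region mean log2(SL/C) by number of probes, as median and quartiles over regions on each array; right, the SD across regions (circles, solid) and the median SD among probes within a region (squares, dashed); the shaded classes have 10 or more probes. The spread across regions falls from 0.75 in regions of 4 probes to 0.31 in those of 16 or more on array 1, while the spread among probes within a region rises from 0.14 to 0.35.

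Large regions were less spread as wholes than smaller regions, and their probes more spread within them. Across the 962 regions the SD of log2(SL/C) was 0.32 on array 1 and 0.19 on array 2, against 0.68 and 0.34 across regions of 2 to 9 probes. Among probes within a region the order was turned: the median SD was 0.34 and 0.24 in large regions, against 0.15 and 0.12 in smaller ones. Log2 signal behaved alike, with a median SD among probes of 1.42 in large regions and 0.52 in smaller ones (C on array 1). Both differences were seen on both arrays. The ratio spreads changed with probe number below 10 too. In regions of 8 probes the SDs were 0.42 and 0.22 across regions, and 0.29 and 0.20 within them. In the 111 regions of 9 probes they were near those of large regions, at 0.34 and 0.20 across and 0.32 and 0.20 within. Averaging over more probes alone lowers the spread of region means; across quartets, runs of 4 probes counted from the first probe in the 446 large regions with a multiple of 4 probes, the SD was 0.49 and 0.30.

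Few large regions passed a fold of 1.5. On array 1, 80 did (8.32%), against 27.1% of all autosomal regions and 28.1% of those of 2 to 9 probes; on array 2, 8 did (0.832%), against 4.02% and 4.19%. A large region averages more probes, and the share fell with probe number below 10 too. On array 1 it was 14.5% in regions of 8 probes and 9.01% in the 111 of 9 probes. On array 2 these were 0.917% and 0%. In equal units of 4 probes, 20.1% of quartets of large regions passed 1.5-fold on array 1, against 30.4% of regions of 4 probes. On array 2 the shares were 3.12% and 4.33%. None of the 962 passed it alike on the 2 arrays. Over all autosomal regions 41 of 18175 did (0.226%), 37 of them lower in SL (0.204%) and 4 higher (0.022%). Another 6 large regions passed it in opposite directions, 3 with Cy5 higher and 3 with Cy3 higher, against a background of 2.27%. The sign was the same on both arrays in 376 regions (39.1%), 292 above 0 and 84 below. Over all autosomal regions it was the same in 38%, 3140 above 0 and 3759 below. The split in large regions was not separated from their median, which lay slightly above 0 on both arrays. The ratios of the 2 arrays correlated at Pearson r = -0.506 (Spearman rho = -0.477) over the 962 regions. For regions of 2 to 9 probes r was -0.426. These are descriptions across regions that share arrays, dyes and depth. Because the dyes were exchanged, an r below 0 for SL over C is an r above 0 for Cy5 over Cy3. The sign of array 2, and with it each count of regions alike on both arrays, rests on the dyes that the labels give.

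**Figure D3:**
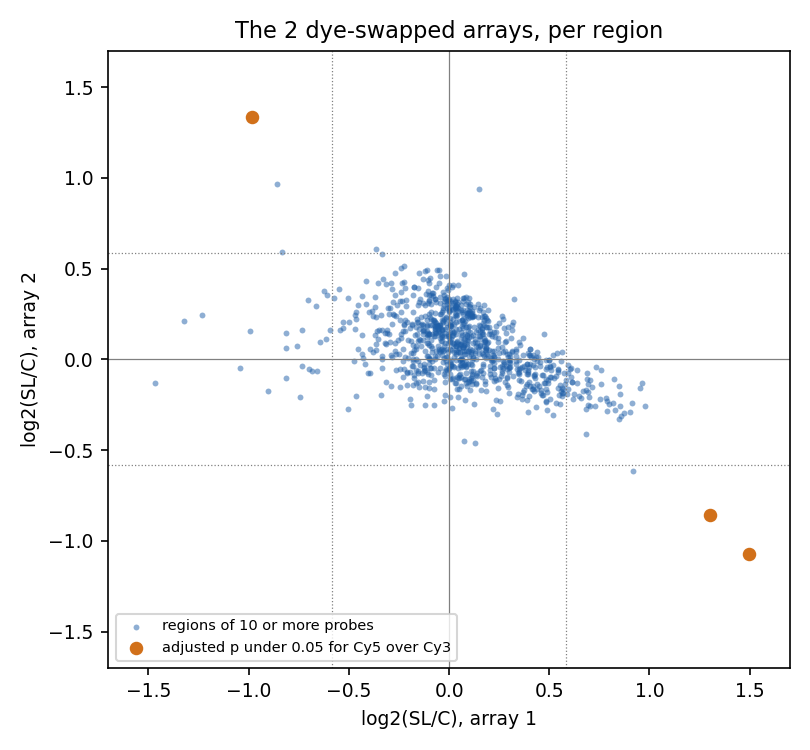
Region mean log2(SL/C) on array 1 (horizontal) against array 2 (vertical) for the 962 regions of 10 or more probes; dotted lines mark 1.5-fold, and the 3 larger orange points had an adjusted p under 0.05 in limma for Cy5 over Cy3. The points run from upper left to lower right, and no point lies past both dotted lines at lower left or upper right.

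The limma test over all regions called none of the large regions for SL over C. At an adjusted p under 0.05 it called 0 of 962, with a background of 0 of 18544 (0%). At an unadjusted p under 0.05 there was 1 large region (0.104%), against 378 of all regions (2.04%). The fit pools the spread between arrays over all regions, and 17213 autosomal ones have 2 to 9 probes. Means of large regions are less spread (SD 0.32 against 0.68 on array 1). These shares are therefore not on equal terms, and the lack of calls was not separated from averaging over more probes. The 1 large region under that unadjusted threshold, chr5:148469515-148470688 (10 probes, 8 kept), read 115 (SL) and 311 (C) on array 1. On array 2 it read 160 and 180.1. Its log2(SL/C) was -1.47 and -0.13 (adjusted p = 0.999 by limma, and 0.0421 before adjustment). It was named after its value was seen.

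Some regions kept 1 sign over both arrays, at a size below 1.5-fold on at least 1 of them. The regions described next were ranked by the smaller of their 2 ratios, so their agreement is a description. The highest was chr12:40956156-40957127 (12 probes), with 266 (SL) and 207 (C) on array 1, then 155 and 126 on array 2. SL was higher in all 12 probes on both arrays, with region ratios of 0.32 and 0.33 (mean 0.33 ± 0.33 SE, limma adjusted p = 0.999). Here and in the next paragraph the SE is mostly the spread pooled over all regions, not the gap between the 2 arrays. In chr7:44219819-44221617 (15 probes), 14 of 15 probes were above 0 on both arrays. Its signals were 2792 (SL) and 2177 (C), then 1602 and 1428. The other 4 were chr9:27048260-27049509, chr6:42278979-42281179, chr8:46436385-46437371 and chr1:179278422-179279818. Their ratios lay between 0.20 and 0.27 on both arrays, and between 4 and 9 of their probes were above 0 on both.

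Among regions lower in SL on both arrays, chr11:85657273-85659723 (12 probes) came first. It read 598 (SL) and 826 (C) on array 1, then 417 and 519 on array 2, with ratios of -0.51 and -0.28 (mean -0.39 ± 0.33 SE, limma adjusted p = 0.999). Its first 8 probes were below 0 on both arrays, and its last 4 were above 0 on array 1, between 0.02 and 0.38. The region chr5:76024275-76025963 (12 probes) was uniform instead: all 12 probes were lower in SL on both arrays. It read 13850 (SL) and 17070 (C), then 10130 and 11960, with ratios of -0.34 and -0.20. In chr3:96721198-96722639 (10 probes) the ratios were -0.74 and -0.21, with 6 probes below 0 on array 1 and 9 on array 2. In chr7:65698053-65699645 (12 probes) they were -0.46 and -0.20, with 4 probes below 0 on array 1 and 11 on array 2. Those 4 probes lay between -3.062 and -1.825 on array 1, and the others were above 0 there. The last 2, chr2:119873636-119875160 and chr2:160600995-160603199 (10 probes each), lay between -0.25 and -0.19, with 4 probes each below 0 on both arrays.

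The dye contrast was the one that called large regions. For Cy5 over Cy3, limma called 3 of 962 (0.312%), against 481 of all 18544 regions (2.59%), of which 475 were higher in Cy3 (2.56%) and 6 higher in Cy5 (0.0324%); 8.37% had an unadjusted p under 0.05. This fit gave every region the same SE (0.3057), so its p follows the size of the mean and not how well the arrays agreed. Means of large regions are less spread, so these shares are not on equal terms. Of the 3 large ones, 2 were the bright pair on chromosome 3. Their log2(SL/C) was 1.496 and -1.071 in chr3:93368485-93371415 (limma adjusted p = 0.00157 for Cy5 over Cy3), and 1.30 and -0.86 in chr3:93375397-93378237 (adjusted p = 0.0187). The calls of these 2 were lost with loess within each array (adjusted p = 0.502 and 0.858). The other, chr3:127827978-127829446 (12 probes), was higher in Cy3, with 805 (SL) and 1549 (C) on array 1, then 1212 and 493 on array 2 (adjusted p = 0.00732). Its first 4 probes carried most of this, with log2(SL/C) between -4.06 and -2.37 on array 1 and between 2.85 and 4.20 on array 2. Its call was lost when the median over probes replaced the mean (adjusted p = 0.899). With probe length medians subtracted no large region was called, and the calls over all regions fell from 481 to 96.

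Edge and centre probes differed in either direction from region to region, with a median near 0. The edge was the outer 1 in 4 kept probes at each end, and the centre the rest. The median edge-minus-centre difference in log2(SL/C) was -0.03 on array 1 and -0.02 on array 2, with SDs across regions of 0.35 and 0.21. It was below 0 in 522 (54.3%) and 517 (53.7%) of 962 regions. Over all autosomal regions the shares were 49.1% and 47.1%. They were 55.5% and 48.9% in regions of 5 to 7 probes, and 55% and 49.5% in those of 9. Regions of 3 to 9 probes had medians of 0.00 and 0.01, which pool unlike classes. On array 1 the median was -0.03 in regions of 5 to 7 probes, -0.01 in those of 8 and -0.06 in those of 9. On array 2 these were 0.005, 0.001 and 0.0005. The difference between large regions and those of 3 to 9 probes was -0.04 and -0.03 (exact sign-flip p = 0.5, the smallest possible). The large regions' own average over the arrays, -0.03, was -0.01 with probe length medians subtracted and turned to 0.00403 in regions of 15 or more probes. Edge probes were less often 45 bases long (52.3%) than centre probes (63.2%). The limma test of edge minus centre called 0 of 962 regions, with a background of 0 of 15358 (0%); at an unadjusted p under 0.05 there were 24 (2.49%), against 1.06%.

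Fragment signal at the edge against the centre differed between classes of probe number. The edge-minus-centre difference in log2 signal was 0.03 (SL) and 0.07 (C) on array 1, then 0.04 and 0.06 on array 2. In regions of 3 to 9 probes as 1 class it lay between -0.02 and 0.00, but this pools unlike classes: in SL on array 1 it was 0.04 in regions of 4 probes, -0.36 in those of 5 to 7 and -0.03 in those of 8. In the 180 regions of 16 or more probes the edges were brighter, by 0.16 and 0.26 on array 1, then 0.20 and 0.23 on array 2. In the 142 regions of 10 probes the edges were dimmer, at -0.32 and -0.22, then -0.24 and -0.28. Regions of 9 probes had -0.43, -0.34, -0.33 and -0.42 in the same order. With probe position divided into 10 equal bins of a region, mean ratios stayed within 0.03 of the region mean on both arrays.

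Large deviations of the edge were found in single regions. Edges were higher than the centre on both arrays by 1.99 and 0.47 in chr11:35084549-35086427 (limma adjusted p = 1). Next came chr2:30478973-30480744 at 0.46 and 0.34, chr15:98121750-98125542 at 0.28 and 0.39, and chr5:122097138-122099425 at 0.29 and 0.27. Edges were lower, at -0.90 and -0.47 in chr8:127832827-127836222, -0.79 and -0.39 in chr11:117470256-117472025, -0.33 and -0.52 in chr11:52124829-52127107, and -0.33 and -0.34 in chr5:144508181-144510069. All 8 had an adjusted p of 1.

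The first of these, on chromosome 11, is given probe by probe, and it does not stand for the others. In array order, log2(SL/C) of the 10 probes of chr11:35084549-35086427 on array 1 was -0.26, 0.36, 0.45, 0.27, -1.90, -3.54, -4.07, -3.94, -0.25 and -0.36. On array 2 the same probes read 0.37, 0.13, 0.12, 0.26, -0.10, 0.06, -0.07, -0.13, 0.61 and 0.85. The drop was thus limited to probes 5 to 8, which start 1147 to 1315 bp from the first probe, and it was absent on array 2. On array 2 the edge was higher mainly at probes 9 and 10 (0.61 and 0.85). At probe 7 the signals were 1269 (SL) and 20690 (C) on array 1, but 12520 (SL) and 13490 (C) on array 2. The SL channel of array 1 stood apart from the other 3.

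A pattern of 4 probes was seen in large regions whose probe number is a multiple of 4, which are 446 of the 962. It was noticed in the data, and what follows on quartets is about those regions. In regions of 12 probes, neighbouring probes differed in log2(SL/C) by a median of 0.13 to 0.17 on array 1, except from probe 4 to 5 (0.32) and from probe 8 to 9 (0.34). On array 2 the same steps were 0.21 and 0.22, against 0.12 to 0.15 elsewhere. In log2 signal (C on array 1) they were 1.34 and 1.38, against 0.52 to 0.68. Across the regions, neighbouring probes correlated at r between 0.781 and 0.871 on array 1 inside a run of 4, and at 0.267 and 0.180 across the steps. These correlations are over 321 to 329 regions, and points share library and array. In regions of 16 probes the steps were less even on array 1: 0.33 from probe 4 to 5 and from 12 to 13, but 0.25 (r = 0.698) from 8 to 9, against 0.12 to 0.22 elsewhere.

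**Figure D4:**
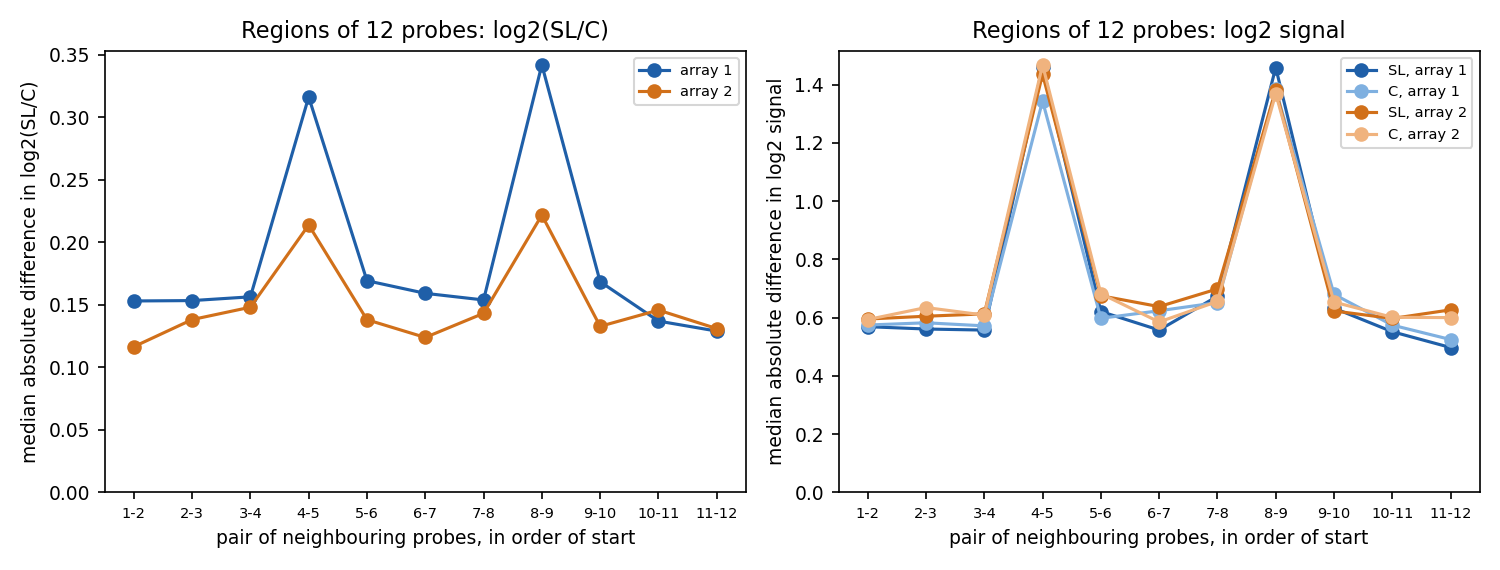
Median absolute difference between neighbouring probes in regions of 12 probes, for log2(SL/C) on each array (left) and log2 signal in each of the 4 channels (right), by place in the region. Both rise at the steps from probe 4 to 5 and from 8 to 9: on array 1 to 0.32 and 0.34 for the ratio, from 0.13 to 0.17 elsewhere.

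In the 446 regions the step was present at each distance between probe starts that was compared; the other 516 were not split by distance. Within 100 bp, array 1 neighbours in one run of 4 (a quartet) differed by a median of 0.16, and those in different quartets by 0.29. At 301 to 500 bp the values were 0.15 and 0.43. At all distances these regions had 4332 pairs within quartets, with medians of 0.15 and 0.14 on the 2 arrays, and 1015 pairs between quartets, with 0.32 and 0.23. In the other regions quartets counted from the first probe separated less, at 0.18 and 0.16 within and 0.22 and 0.18 between. Regions of 8 probes, outside the set, had the same step at probe 4 to 5 (0.39 on array 1, against 0.14 to 0.17 elsewhere).

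Quartets of 1 region shared little of their SL over C in regions of 12 probes; in regions of 16 it varied with the pair of quartets. In regions of 12 probes, the quartets' ratios correlated at r between 0.120 and 0.271 on array 1 and between 0.176 and 0.263 on array 2 (n = 328 to 332 regions). In regions of 16 probes (n = 70 to 74) the range was wider: r lay between 0.142 and 0.625 on array 1, and between 0.351 and 0.664 on array 2. In regions of 12 probes the signals of quartets correlated at 0.494 to 0.703 (C on array 1). The ratio of a region's brightest quartet to its dimmest is above 1 by construction and sets different probes side by side; as a description, its median was 4.9-fold (SL) and 4.02-fold (C) on array 1, and 4.504-fold and 4.79-fold on array 2. It was over 4-fold in all 4 channels in 152 of 327 such regions (46.5%) and in 37 of 69 regions of 16 probes (53.6%). Ratios of both signs stood within 1 region in 212 of 327 regions of 12 probes on array 1 and in 200 on array 2. In regions of 8 probes this held in 607 and 585 of 1397. More quartets per region make mixed signs likelier, so this too is a description. The SD across quartets of 12-probe regions was 0.49 and 0.31, against 0.75 and 0.37 across regions of 4 probes.

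A refit with quartets as units gave calls that the fit of whole regions did not. The 1475 quartets of 446 large regions were fitted with limma together with those of smaller regions. For SL over C, 3 were called (0.203%), against 121 of 13197 quartets (0.917%) and 106 of 8637 regions of 4 probes (1.23%). Those same 8637 regions, unchanged as units, had 0 calls in the fit of whole regions. The 3 calls therefore cannot be told apart from the change of fit. At an unadjusted p under 0.05 there were 11, with a background of 2.21%. All 3 called were lower in SL. None of the 1475 passed 1.5-fold alike on both arrays. Few regions of 4 probes did either, 12 lower in SL and 1 higher among 8637. For Cy5 over Cy3, 19 were called, with a background of 2.52%.

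Each of the 3 called quartets drew its ratio from array 1. In chr19:42956885-42957245 the signals were 703 (SL) and 6955 (C) on array 1, then 4177 and 3955 on array 2. Its ratios were -3.35 and 0.12 (mean -1.61 ± 0.39 SE, limma adjusted p = 0.00958). In chr2:9798601-9798834, quartet 4 of the 36-probe region, the signals were 94.1 and 759 on array 1, then 351 and 465 on array 2. Its ratios were -3.05 and -0.37 (mean -1.71 ± 0.38 SE, adjusted p = 0.00287). In chr7:65698924-65699120 the signals were 868 and 4636, then 2466 and 3313, with ratios of -2.46 and -0.38 (mean -1.42 ± 0.37 SE, adjusted p = 0.0243). In the first the sign differed between arrays, and array 2 alone was within 1.5-fold in all 3. The SE is mostly the spread pooled over quartets, and is smaller than the gap between these arrays.

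**Figure D5:**
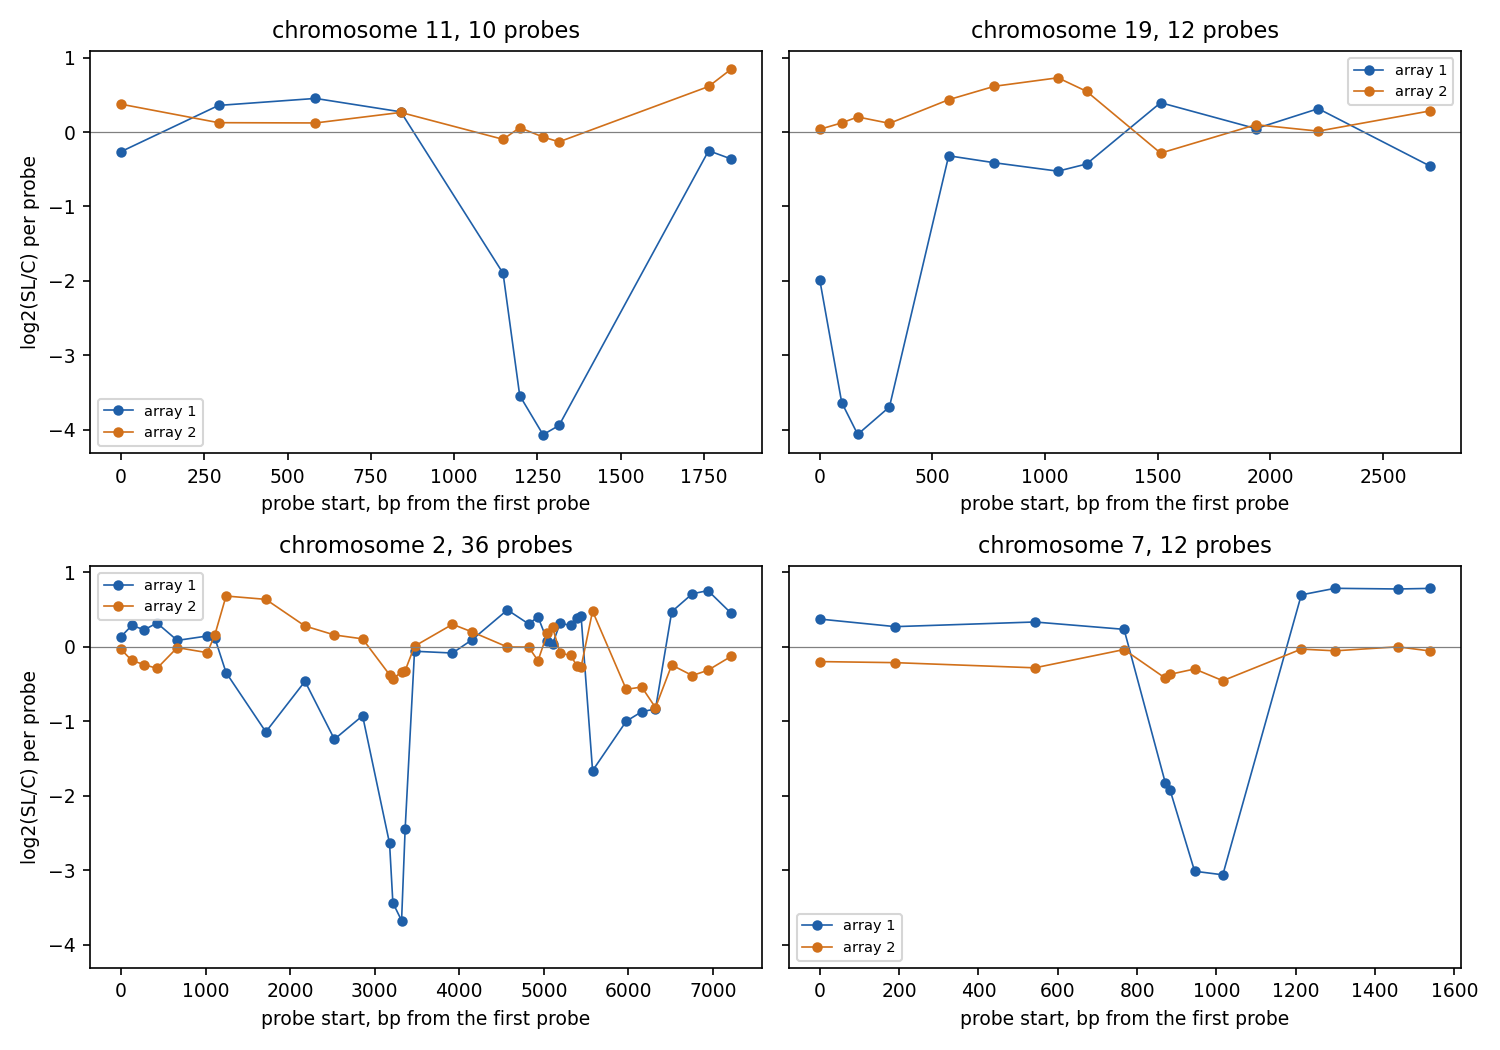
Log2(SL/C) of each kept probe against its start in bp from the first probe, on array 1 and array 2, in a 10-probe region on chromosome 11, a 12-probe region on chromosome 19, a 36-probe region on chromosome 2 and a 12-probe region on chromosome 7. In each, 4 consecutive probes drop on array 1, to between -4.07 and -1.83 over the 4 regions, and stay between -0.45 and 0.20 on array 2.

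Among the 1475 quartets, 7 were lower in SL by 4-fold or more on array 1, each in a different region (0.475%, against 2.59% of regions of 4 probes). None was 4-fold higher on that array, and of the 224 regions of 4 probes that passed 4-fold there, 223 were lower too. The chromosome 11 drop described above is not among the 7, since its region has 10 probes. No whole region of 10 or more probes reached 4-fold on array 1. On array 2, 5 of the 7 were within 1.5-fold. Besides the 3 called, these were chr14:20772546-20773243, with ratios of -2.52 and 0.07, and chr18:81534052-81534301, with -2.28 and -0.02. The other 2 turned with the dye. The first quartet of chr3:127827978-127829446 read -3.39 and 3.64, and chr3:36880126-36880338 read -2.66 and 2.80. In these 2 the Cy3 channel was higher on both arrays.

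The quartets also showed contrasts that held on both arrays within a region. In 6 of 1475 quartets, 5 lower and 1 higher, the difference from the other quartets of the region was 1.5-fold or more, alike on the 2 arrays. Of these, 2 are the same contrast on chromosome 9 seen from either side, which leaves 5 regions. How often quartets of smaller regions showed such a difference was not counted, so the 6 are a description and no trait of large regions. The limma test of this difference called none (0 of 1475; 9 at an unadjusted p under 0.05; background 0 of 4361, or 0%, and 0.803% unadjusted). In chr9:65144582-65145749 the second quartet, chr9:65144883-65145392, read 114 (SL) and 74.99 (C) on array 1, then 135 and 45.5 on array 2, with ratios of 0.56 and 1.61. Its neighbour, chr9:65144582-65144870, read -0.12 and 0.49. In chr6:113247466-113247973 (3 probes kept) the ratios were -0.52 and -0.96, at signals between 34.7 and 96.6. In chr9:20784879-20785417 they were -0.38 and -0.86, in chr11:4169244-4169979 -0.38 and -0.64, and in chr8:109824208-109824603 -0.71 and -0.38.

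The regions with the most probes differed in how even they were. The longest, chr5:143079096-143087821, held 55 probes (49 kept) over 8726 bp. It was dim, at 212 (SL) and 223 (C) on array 1, then 123 and 119 on array 2, with ratios of -0.11 and 0.09. Of its 49 probes, 3 were below 0 on both arrays and 8 above 0 on both. The 43-probe region chr6:58090186-58096301 was bright, at 6687 and 7309, then 5429 and 5310, with ratios of -0.17 and 0.07, and 39 of its 43 probes were below 0 on array 1.

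The 36-probe region chr2:9795425-9802695 was uneven along its length. Its region means, 457 (SL) and 585 (C) on array 1, then 300.6 and 326 on array 2, gave ratios of -0.40 and -0.08 (limma adjusted p = 0.999). Quartet 4, 3176 to 3360 bp from the first probe, lay between -3.68 and -2.45 on array 1. Another 4 probes, 5576 to 6320 bp from the start, lay between -1.66 and -0.83. Of these, the last 3 were also below 0 on array 2, between -0.82 and -0.54. The 4 probes after them lay between 0.45 and 0.76 on array 1 and between -0.38 and -0.13 on array 2.

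The other 3 were chr6:88162103-88166205 (32 probes), chr8:11005465-11009743 (31 probes, 30 kept) and chr11:89114953-89119329 (30 probes, 26 kept). The chromosome 8 region was the only one of these 6 above 0 on both arrays, at 0.41 and 0.06, with 1291 (SL) and 949 (C) on array 1, then 702 and 693 on array 2. The chromosome 6 region read -0.10 and 0.08, and the chromosome 11 region -0.06 and 0.19.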

How the data were processed

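Both arrays were 2-colour Agilent arrays. Per the file headers, the authors' processed intensity of each channel is background-subtracted and dye-normalised by Agilent Feature Extraction (10.5.1.1; the submitters' processing notes name 9.1.3.1). Each spot also has a deposited log10 ratio (Cy5 over Cy3). A deposited value table matched that ratio, once array 2 was turned, to within 0.005; its column medians were 0.00385 and -0.00823, so it is not median-centred exactly. The deposited flags mark spots as above background, outlier or saturated.

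Control spots and outlier-flagged spots (44 of 90535 genomic spots) were left out, and spots of one probe were averaged. Log2 ratios of processed signals were centred on each array's median and turned to SL over C, with no loess. Region values are means over kept probes. All regions with 2 or more kept probes on any chromosome were fitted at once in limma 3.58.1 under R 4.3.3 by lmFit and eBayes with only an intercept. Tests were two-sided with Benjamini-Hochberg adjustment; edge minus centre needed 3. The fit was tested on simulated data. Members and lists were chosen with earlier results of these data known. Regions named were the 6 with most probes, up to 6 per direction by the smaller ratio with 1 sign on both arrays, every called region, up to 4 per direction by edge minus centre, the 4 brightest and 4 dimmest, and the longest of 10 and of 9 probes. The rule on quartets came after the data were seen.

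The alternatives were normexp (offset 50) on median and background signals, since mean signals were not used here; loess; no or a stricter filter; the deposited ratio; gaps of 250 and 1000 bp; 8 or 15 probes; the median over probes; probe length; a limma trend; other edges; and each array alone. Only 2 arrays limit the precision, and both lay on 1 slide, so no batch was tested.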

Additional observations from a re-analysis of the deposited data

How the results depend on the processing

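No paired analysis was possible because there is 1 group of 2 arrays, each already a pair of SL and C. No large region was called for SL over C, or for edge minus centre, under any alternative that kept whole regions; over all regions the SL over C fit called 0, but 125 with probes well above background in all 4 channels, 105 with the median over probes, 87 with normexp, 195 with a trend on signal and 1 with a gap of 250 bp. With quartets as units 3 were called for SL over C and 19 for Cy5 over Cy3. The 3 calls for Cy5 over Cy3 became 1 with loess, 0 with probe length subtracted, 5 with a gap of 1000 bp and 11 with 8 or more probes. Regions past 1.5-fold, 0 on both arrays alike, numbered 8 to 80 on 1 array alone. The median log2(SL/C), averaged over arrays, was 0.05; it was 0.0726 with normexp, 0.0399 with loess, 0.0616 without a filter, 0.106 with a gap of 250 bp, 0.0343 with 1000 bp, 0.0671 with the median over probes, 0.00675 with probe length subtracted and 0.0653 over quartets. The spread was 0.26, and 0.39 over quartets. Edge minus centre in log2(SL/C) was -0.03; it was -0.0111 with a gap of 1000 bp, -0.00832 with 8 or more probes, 0.00403 with 15 or more, -0.00993 with probe length subtracted and -0.00606 with the edge set by base position. Edge minus centre in log2 signal was 0.05; it was 0.0557 with normexp and 0.0483 without a filter. The log2 signal was 9.03, and 10.1 with normexp, which adds an offset.

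Of the named regions' values, 349 kept direction and call, 7 lost a call and 20 changed sign; the cause was not tested. Of the mean ratios, chr5:143079096-143087821 turned to 0.0425 with normexp and 0.0596 with the median over probes. The region chr6:88162103-88166205 turned to 0.00957 with normexp, 0.0207 with a gap of 250 bp and 0.0397 with the median, and chr7:65698053-65699645 to 0.0492 with the median. With loess chr7:37479462-37483319 turned to -0.0101, chr11:58821112-58822984 to -0.0411 and chr17:39453405-39455108 to -0.106. The region chr12:15840607-15842792 turned to 0.0249 with normexp, 0.000422 with a gap of 250 bp and 0.0353 with the median, and chr6:30565615-30568492 to 0.00579 with normexp, 0.123 with the median and 0.0702 with probe length subtracted. Of the edge differences, a gap of 250 bp turned chr5:144508181-144510069 to 0.0273, chr2:30478973-30480744 to -0.261 and chr5:122097138-122099425 to -0.00103, and chr15:98121750-98125542 turned to -0.00331 without a filter and to -0.177 with the edge set by base position.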
